A study of Mus musculus with 5 samples.

Results

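Regulatory T cells are a branch of the CD4 T cell lineage that arises in the thymus among CD4 single positive (CD4 SP) thymocytes, and they restrain other T cells. *Foxp3* encodes their lineage-defining forkhead transcription factor. The 9 genes described here were chosen by name as *Foxp3* and 8 genes known from regulatory T cells: *Il2ra*, *Ikzf2*, *Ikzf4*, *Gpr83*, *Lrrc32*, *Capg*, *Nt5e* and *Izumo1r*. They are 9 of 55487 genes counted. All 9 were among the 13525 genes with enough reads to be tested.

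RNA was sequenced from sorted CD4 SP cells of 3 wild type (WT) mice and 2 *Tet2/3* DKO mice of the C57BL/6J strain, aged 21 to 30 days, with 1 library per mouse. The *Tet2/3* DKO genotype is Tet2-/-Tet3flx/flxCD4cre, so that *Tet2* was disrupted in every cell of the animal and *Tet3* was deleted by a CD4-driven Cre, which acts from the double positive thymocyte stage onward. TET2 and TET3 are enzymes that oxidize 5-methylcytosine and thereby start the removal of DNA methylation. The sort took live CD24 low cells that were CD4+, TCRb+ and CD8- and did not bind the CD1d tetramer that marks iNKT cells. *Foxp3* was not part of the sort, so a library can hold regulatory T cells together with conventional CD4 SP cells. In such bulk RNA, fewer cells of a type and less RNA per cell cannot be told apart.

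Libraries held 17607089 to 27267031 reads on genes. *Tet3* was lower in *Tet2/3* DKO cells, with a log2 fold change of -1.50 (adjusted p = 0.0012, edgeR's quasi-likelihood test, Benjamini-Hochberg adjusted), whereas *Tet2* was not, at 0.46 (adjusted p = 0.135, same test). Without WT replicate 2 or 3 *Tet3* missed the threshold (adjusted p = 0.0154 and 0.0144). Counts over the whole gene do not show whether single exons are missing. Labels and sex-linked genes did not match in 2 libraries. *Tet2/3* DKO replicate 1, labelled male, had 744 *Xist* counts and 0 to 5 counts of each of 4 Y-linked genes. WT replicate 1, labelled female, had 0 *Xist* counts and 415 to 3890 counts of each Y-linked gene. The study's text describes all the mice as male, which the counts of WT replicate 1 fit and those of *Tet2/3* DKO replicate 1 do not. Because *Foxp3* is X-linked and *Tet2/3* DKO replicate 1 also had the highest share of reads outside genes (5.70%, against 3.51% to 3.72% elsewhere), values without that library are given for the genes where it differed most from the other *Tet2/3* DKO library. The part of these differences in the results was not tested.

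Known biology gives these genes separate roles. FOXP3 works with the zinc finger proteins Helios (*Ikzf2*) and Eos (*Ikzf4*). *Il2ra* encodes CD25, the high-affinity chain of the IL-2 receptor, on which developing regulatory T cells depend. *Lrrc32* encodes GARP, which holds latent TGF-beta on the cell surface, and *Nt5e* encodes CD73, the ecto-enzyme that makes adenosine from AMP. *Izumo1r* encodes folate receptor 4, a surface protein abundant on regulatory and anergic CD4 T cells, *Gpr83* encodes a G protein-coupled receptor, and *Capg* encodes an actin-capping protein.

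*Foxp3* fell in *Tet2/3* DKO cells while *Nt5e* and *Izumo1r* rose, and the other 6 genes did not pass the test. At an adjusted p-value threshold of 0.01 in edgeR's quasi-likelihood test, 3 of the 9 genes differed between the genotypes, beside 3.92% of all tested genes. The 9 genes and the lists below were chosen with earlier results of these data known. Shares of all tested genes beside them are therefore a description and not a test. The 2 increases stand beside 2.42% of tested genes that were higher, and the 1 decrease beside 1.5% that were lower. In 5 of the 9 both *Tet2/3* DKO libraries lay on the same side of every WT library, as they did in 39.1% of all tested genes. The median log2 fold change of the 9 genes was -0.07, and that of all tested genes was 0.0076, so the genes did not share a direction: 4 had positive and 5 had negative values. Levels are given as CPM, which are read counts scaled to 1 common library size.

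**Figure D1:**
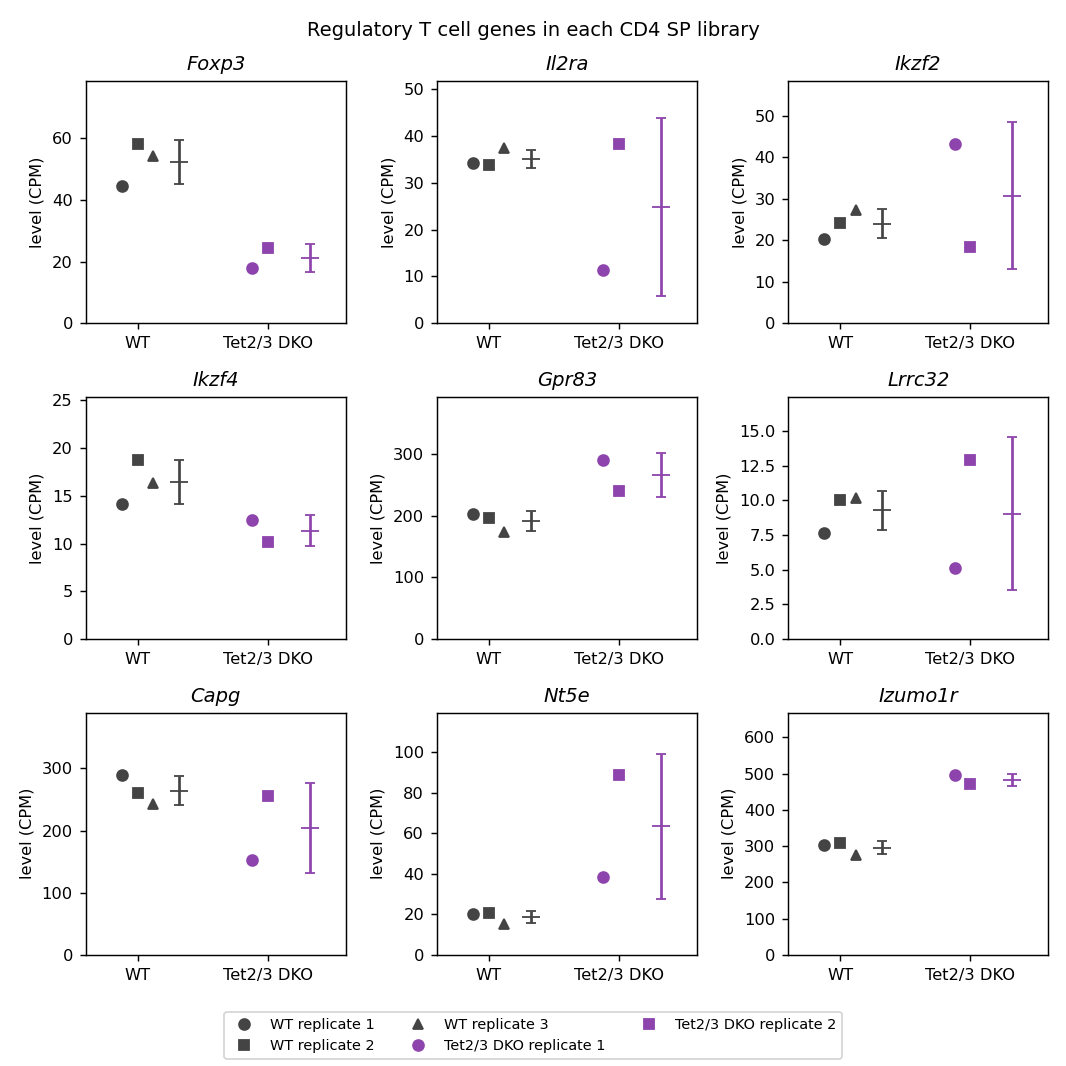
Level of each of the 9 genes in CPM (vertical axis from 0) in the 3 WT and 2 Tet2/3 DKO libraries, 1 point per library, with the mean and SD of each genotype beside the points. The genotypes do not overlap for Foxp3, Ikzf4, Gpr83, Nt5e and Izumo1r, and the Tet2/3 DKO libraries lie far apart for Il2ra, Ikzf2, Lrrc32 and Nt5e.

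*Foxp3* (ENSMUSG00000039521, chromosome X of GRCm38 from 7573644 to 7595245, plus strand) had 44.4, 58.1 and 54.3 CPM in WT replicates 1, 2 and 3, and 17.9 and 24.3 CPM in *Tet2/3* DKO replicates 1 and 2. Both *Tet2/3* DKO libraries lay below every WT library. The means were 52.3 ± 7.09 CPM (SD, n = 3) and 21.1 ± 4.53 CPM (SD, n = 2). The log2 fold change was -1.31 with a standard error of 0.17 (adjusted p = 0.00191, edgeR's quasi-likelihood test, Benjamini-Hochberg adjusted), which is 0.403 of the WT level. Without *Tet2/3* DKO replicate 1, which leaves 1 library of that genotype, it was -1.10. *Foxp3* no longer passed the threshold without WT replicate 2 or 3, with adjusted p-values of 0.0203 and 0.0208 and log2 fold changes of -1.23 and -1.28.

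The size of this decrease depended on how reads over shared sequence were counted. In GENCODE M21, 1443 of the 4577 exon bases of *Foxp3*, or 31.5%, are also exons of other genes: *Ccdc22*, *Ppp1r3f* and *Gm36995* on the opposite strand and *Flicr* on the same strand. The *Foxp3* and *Ccdc22* gene bodies share 1437 bases at their ends. The libraries carry no strand information, with 49.8% to 50.2% of reads on either strand, and the deposited count without strand leaves out reads that fit exons of more than one gene.

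Counting the strands separately and adding both counts returned 1078, 983 and 1050 reads to *Foxp3* in the WT libraries and 845 and 640 in the *Tet2/3* DKO libraries, between 70.5% and 225% of the count without strand. For the other 8 genes this addition was at most 6.73%. As levels the added reads were 41.7, 41.4 and 38.3 CPM in WT and 40.3 and 35.8 CPM in *Tet2/3* DKO cells. These ranges overlapped, with means of 40.5 ± 1.91 CPM (SD, n = 3) and 38.0 ± 3.17 CPM (SD, n = 2), in contrast to the reads counted without strand. With the added reads the *Foxp3* log2 fold change was -0.65 (adjusted p = 0.00531, edgeR's quasi-likelihood test), with first-strand counts alone -0.59 (adjusted p = 0.0119, same test) and with second-strand counts alone -0.70 (adjusted p = 0.00264, same test). *Ccdc22*, a widely expressed gene of protein trafficking, had 0 counts without strand in every library. Reads of the shared stretch cannot be assigned to *Foxp3* or to the gene on the other strand in these libraries.

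**Figure D2:**
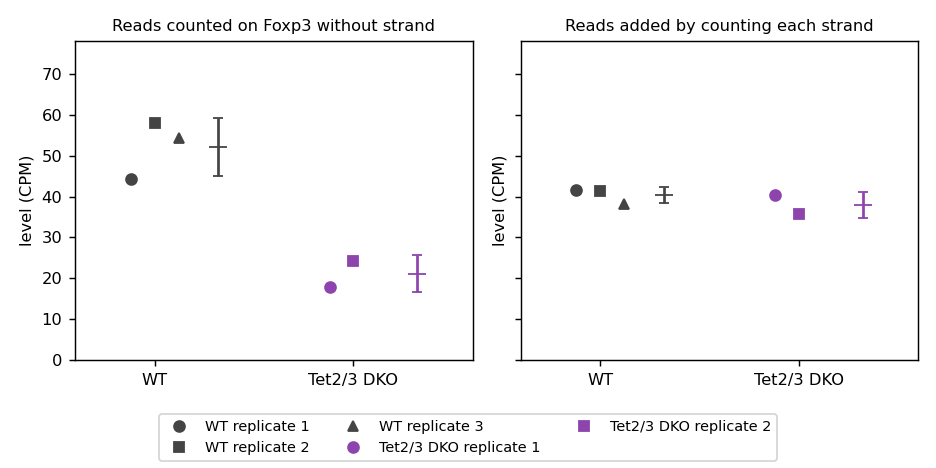
Reads on Foxp3 in CPM (vertical axes from 0) per library, with mean and SD of each genotype, for reads counted without strand (left) and for the reads that counting each strand adds (right). The left panel separates 17.9 and 24.3 CPM in Tet2/3 DKO from 44.4 to 58.1 CPM in WT, whereas the added reads lie between 35.8 and 41.7 CPM in all 5 libraries.

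The upstream sequence of *Foxp3* is shown here, with that of *Gpr83* and *Izumo1r*, because TET enzymes act on cytosines of CG dinucleotides, which are in capitals. RefSeq windows of 250 bases before to 50 after a transcript start (GRCm38.p6) were found for 6 of the 9 genes, 7 windows in all. The stretches below hold no exon of the gene itself and run 5′ to 3′ on its strand. Both *Foxp3* stretches lie in introns of longer *Foxp3* transcripts. Methylation was not measured in these libraries.
Foxp3, first start, chrX:7579426-7579566, plus strand: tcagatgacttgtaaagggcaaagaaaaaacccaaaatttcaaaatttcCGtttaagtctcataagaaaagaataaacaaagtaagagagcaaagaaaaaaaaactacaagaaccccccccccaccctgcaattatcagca
Foxp3, second start, chrX:7580233-7580482, plus strand: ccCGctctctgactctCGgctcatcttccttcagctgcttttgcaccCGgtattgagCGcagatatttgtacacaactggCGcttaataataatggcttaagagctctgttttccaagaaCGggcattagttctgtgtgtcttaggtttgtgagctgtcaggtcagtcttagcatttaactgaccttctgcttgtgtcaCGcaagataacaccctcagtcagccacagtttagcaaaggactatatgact
Gpr83, chr9:14859960-14860209, plus strand: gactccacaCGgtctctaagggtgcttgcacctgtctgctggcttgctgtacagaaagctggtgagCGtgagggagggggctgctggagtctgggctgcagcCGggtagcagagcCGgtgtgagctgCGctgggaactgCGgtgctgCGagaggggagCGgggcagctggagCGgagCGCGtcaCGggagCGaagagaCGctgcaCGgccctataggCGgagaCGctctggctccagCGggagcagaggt
Izumo1r, chr9:14903950-14904017, minus strand: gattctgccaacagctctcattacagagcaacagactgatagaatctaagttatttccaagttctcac

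The 300-base windows held 6 and 8 CG dinucleotides at the *Foxp3* starts, 24 at *Gpr83*, 23 at *Nt5e*, 7 at *Capg* and 3 each at *Il2ra* and *Izumo1r*, beside a median of 7 over 32851 windows. The neighbours *Gpr83* and *Izumo1r* thus differed in CG content. None of the 7 windows held the forkhead core TGTTTAC on either strand, which 3.65% of all windows held, or the CRE motif TGACGTCA, which 1.79% held. The RUNX core TGTGGT was found 1 time, in the *Izumo1r* window, and in 16.8% of all windows. A letter match is a description of the sequence only.

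*Izumo1r* rose the most evenly. It had 304, 308 and 275 CPM in WT replicates 1, 2 and 3, and 495 and 471 CPM in *Tet2/3* DKO replicates 1 and 2, so that both *Tet2/3* DKO libraries lay above every WT library. The means were 296 ± 18.0 CPM (SD, n = 3) and 483 ± 16.9 CPM (SD, n = 2), a log2 fold change of 0.71 with a standard error of 0.09 (adjusted p = 0.00126, edgeR's quasi-likelihood test). Over all 16 alternative settings its log2 fold change stayed between 0.65 and 0.75. It missed the threshold when any WT library was left out, with adjusted p-values of 0.0132, 0.0123 and 0.0134.

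*Gpr83*, whose product is a receptor typical of regulatory T cells, lies next to *Izumo1r*. *Gpr83* spans 14860210 to 14870789 of chromosome 9 on the plus strand and *Izumo1r* spans 14885814 to 14903949 on the minus strand, with 15024 bases and no annotated gene between them. *Gpr83* had 204, 197 and 173 CPM in WT and 291 and 241 CPM in *Tet2/3* DKO cells, without overlap. Its log2 fold change was 0.48 with a standard error of 0.11 (adjusted p = 0.0282, edgeR's quasi-likelihood test), short of the threshold. DESeq2 gave 0.47 (adjusted p = 0.00217). Among the 9 genes these neighbours were each other's nearest in pattern, with a root mean square difference of 0.14 between their centred log2 CPM over the 5 libraries.

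*Nt5e* had 20.4, 20.6 and 15.5 CPM in WT, and 38.2 and 88.5 CPM in *Tet2/3* DKO replicates 1 and 2. Both *Tet2/3* DKO libraries were above WT, but they differed 2.31-fold from each other. The log2 fold change was 1.74 with a standard error of 0.30 (adjusted p = 0.0072, edgeR's quasi-likelihood test), or 3.35 times the WT level. Leaving out *Tet2/3* DKO replicate 1 gave 2.23, and leaving out replicate 2 gave 1.01. The call was lost with robust moderation of the dispersion (adjusted p = 0.0779, same test), with the replicate number as a block (adjusted p = 0.0156) and without WT replicate 1, 2 or 3 (adjusted p = 0.0333, 0.0537 and 0.0602).

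Most markers in lists for NK, cytotoxic and gamma-delta T cells were also higher. Of 7 NK and cytotoxic markers 6 were higher in *Tet2/3* DKO cells, beside 2.42% of all tested genes, and their summed level was 57.7 to 67.3 CPM in WT and 409 and 708 CPM in *Tet2/3* DKO replicates 1 and 2. Of 6 gamma-delta T cell markers 4 were higher, beside the same 2.42%, with summed levels of 28.8 to 30.8 CPM in WT and 240 and 393 CPM in *Tet2/3* DKO cells. The 4 were *Tcrg-C1*, *Tcrg-C2*, *Tcrg-C4* and *Blk*, whereas *Trdc*, the delta chain constant gene, had a log2 fold change of 0.33 (adjusted p = 0.377, edgeR) and *Sox13*, a gamma-delta transcription factor, one of -2.12 (adjusted p = 0.0361, edgeR). In both lists the higher sum was in replicate 2, which also had the higher *Nt5e* level. The part of these markers in the *Nt5e* result was not tested.

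*Il2ra* differed widely between the *Tet2/3* DKO libraries. It had 34.2, 33.7 and 37.4 CPM in WT, and 11.4 CPM in *Tet2/3* DKO replicate 1 against 38.3 CPM in replicate 2. Replicate 1 lay below every WT library and replicate 2 above, a 3.35-fold difference within the genotype, where the median tested gene differed 1.19-fold. The log2 fold change was -0.52 with a standard error of 0.36 (adjusted p = 0.455, edgeR's quasi-likelihood test). Leaving out replicate 1 gave 0.12, and leaving out replicate 2 gave -1.63.

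Helios and Eos transcripts did not pass the test. *Ikzf2* had 20.4, 24.1 and 27.4 CPM in WT, and 43.2 and 18.3 CPM in *Tet2/3* DKO replicates 1 and 2. Here replicate 1 was the high library and replicate 2 the low one, opposite to *Il2ra*. The log2 fold change was 0.37 with a standard error of 0.29 (adjusted p = 0.508, edgeR's quasi-likelihood test). It was -0.39 without replicate 1 and 0.83 without replicate 2. *Ikzf4* had 14.2, 18.8 and 16.3 CPM in WT and 12.5 and 10.2 CPM in *Tet2/3* DKO cells, without overlap. Its log2 fold change was -0.53 with a standard error of 0.19 (adjusted p = 0.125, same test), and it was negative in all 16 alternative settings.

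*Capg* and *Lrrc32* again differed between the *Tet2/3* DKO libraries. *Capg* had 288, 260 and 243 CPM in WT, and 153 and 256 CPM in *Tet2/3* DKO replicates 1 and 2. Only replicate 1 was outside the WT range, and the log2 fold change was -0.37 with a standard error of 0.18 (adjusted p = 0.275, edgeR's quasi-likelihood test). Leaving out replicate 1 gave -0.05, and leaving out replicate 2 gave -0.80, each with 1 *Tet2/3* DKO library left. *Lrrc32*, the lowest of the 9 in CPM, had 7.62, 10.03 and 10.2 CPM in WT and 5.15 and 12.9 CPM in *Tet2/3* DKO replicates 1 and 2. The *Tet2/3* DKO libraries lay on either side of the WT libraries, with a log2 fold change of -0.07 and a standard error of 0.33 (adjusted p = 0.938, same test). It was 0.48 when replicate 1 was left out and -0.86 when replicate 2 was. *Il2ra*, *Capg* and *Lrrc32* were thus all low in *Tet2/3* DKO replicate 1, 1 of the 2 libraries that went against their sex labels.

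**Figure D3:**
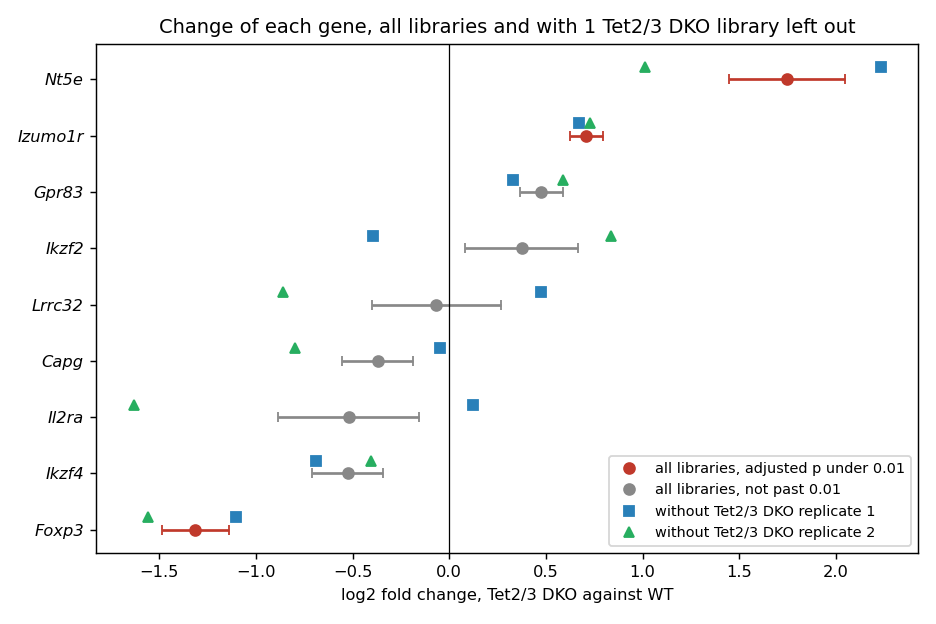
Log2 fold change of Tet2/3 DKO against WT (horizontal axis) for each of the 9 genes, as circles with the standard error for all 5 libraries, and as squares and triangles with 1 Tet2/3 DKO library left out. Foxp3, Ikzf4, Capg, Gpr83, Izumo1r and Nt5e keep their side of 0 in all 3, whereas Il2ra, Ikzf2 and Lrrc32 change side without Tet2/3 DKO replicate 1.

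Set against transcript length, *Izumo1r* and *Capg* were the most abundant of the 9 in WT cells. Levels per kilobase of exon not shared with other genes were 127 ± 7.75 CPM for *Izumo1r*, 104 ± 9.08 for *Capg*, 37.6 ± 3.17 for *Gpr83*, 16.7 ± 2.26 for *Foxp3* and 6.14 ± 0.348 for *Il2ra* (SD, n = 3). *Ikzf4*, *Nt5e*, *Ikzf2* and *Lrrc32* followed, from 2.76 to 1.98 CPM per kilobase, and neighbours in this lower group did not differ beyond their spread. In *Tet2/3* DKO cells *Izumo1r* led with 208 ± 7.26 CPM per kilobase, and *Nt5e*, at 7.37 ± 4.13, and *Foxp3*, at 6.74 ± 1.45, stood next to each other with overlapping spread (SD, n = 2). By counts without strand *Foxp3* thus ranked 4 in WT and 5 in *Tet2/3* DKO cells. Ranks with the reads added by counting each strand were not computed.

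The program was also expressed relative to *Foxp3* in the same library, as a description. *Izumo1r* amounted to 5.07 to 6.85 times *Foxp3* in WT and to 27.6 and 19.3 times in *Tet2/3* DKO replicates 1 and 2. *Nt5e* amounted to 0.285 to 0.46 times *Foxp3* in WT and to 2.13 and 3.64 times in *Tet2/3* DKO cells. *Gpr83* went from 3.19 to 4.59 times *Foxp3* in WT to 16.2 and 9.90 times. All 8 ratios were higher on average in *Tet2/3* DKO cells, from 1.63 times the WT ratio for *Il2ra* to 7.87 times for *Nt5e*, and *Il2ra* was the gene whose ratios overlapped between the genotypes. These ratios have the *Foxp3* level as their shared denominator, so its decrease enters each of them. With *Foxp3* at 0.403 of its WT level, a gene of unchanged level would also have a higher ratio. The ratios of *Il2ra*, *Ikzf4*, *Capg* and *Lrrc32* were higher although their own log2 fold changes were negative. With the counts of both strands added, for the gene and for *Foxp3*, the averages were from 1.08 times the WT ratio for *Ikzf4* and 1.10 times for *Il2ra* to 5.22 times for *Nt5e*, with 2.003 times for *Ikzf2* and 1.52 times for *Lrrc32*. In that form the *Tet2/3* DKO ratios of *Ikzf2*, *Gpr83*, *Nt5e* and *Izumo1r* lay above every WT ratio, and those of *Il2ra*, *Ikzf4*, *Lrrc32* and *Capg* did not.

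**Figure D4:**
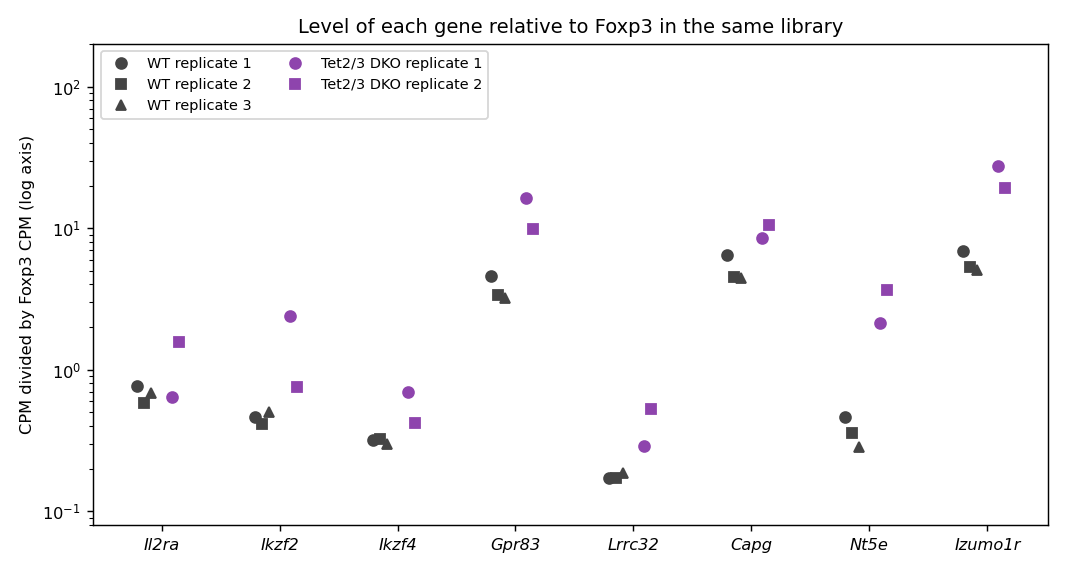
CPM of each gene divided by the CPM of Foxp3 in the same library (vertical log axis), from counts without strand, for 3 WT and 2 Tet2/3 DKO libraries, 1 point per library. The Tet2/3 DKO points lie above the WT points for every gene but Il2ra, whose Tet2/3 DKO replicate 1 falls among the WT libraries.

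The genes closest to *Foxp3* in pattern over the 5 libraries, by the same root mean square difference of centred log2 CPM, were *Klhl5* (0.07), *Ankrd6* (0.10) and *Dusp4* (0.11), a phosphatase of MAP kinases. Chosen for their likeness, they are given without a test of it. Their log2 fold changes were -1.37, -1.35 and -1.18, and none passed the threshold (adjusted p = 0.014, 0.0821 and 0.0123, edgeR's quasi-likelihood test).

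A broader list of 34 regulatory T cell genes was mixed in direction. Of its 32 tested genes 7 were higher and 2 lower in *Tet2/3* DKO cells and 23 did not pass, beside 3.92% of all tested genes called, and the median log2 fold change was 0.16. DESeq2, which called 1027 of 24705 genes, called 12 genes of the list, against 9 with edgeR. The higher genes included *Icos*, a costimulatory receptor, with 263, 252 and 298 CPM in WT and 437 and 710 CPM in *Tet2/3* DKO cells (log2 fold change 1.08, adjusted p = 0.0053, edgeR's quasi-likelihood test). *Itgae*, which encodes the CD103 integrin chain, had 3.87, 6.74 and 4.41 CPM in WT and 31.8 and 29.6 CPM in *Tet2/3* DKO cells. Effector regulatory and conventional T cells share several of the remaining genes.

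*Batf*, an AP-1 family transcription factor, had a log2 fold change of 0.79, *Lag3*, an inhibitory receptor, of 4.58, and *S100a6* of 3.17. *Lag3* was uneven, with 30.2 CPM in *Tet2/3* DKO replicate 1 and 184 CPM in replicate 2 against 3.98 to 4.92 CPM in WT. *S100a6*, with 33.6 and 101 CPM in *Tet2/3* DKO replicates 1 and 2, and *Maf*, with 9.01 and 33.3 CPM, were uneven in the same direction. Leaving out replicate 1 gave log2 fold changes of 5.37 for *Lag3*, 3.76 for *S100a6* and 3.77 for *Maf*, and leaving out replicate 2 gave 2.75, 2.15 and 1.87. *Ccr4*, a chemokine receptor, at 1.33, and *Maf*, a transcription factor, at 3.09 completed the increases. Both decreases were in chemokine receptors. *Ccr8* had 205, 198 and 243 CPM in WT and 122 and 125 CPM in *Tet2/3* DKO cells (log2 fold change -0.80, adjusted p = 0.0022, edgeR's quasi-likelihood test), and *Ccr6* had a log2 fold change of -2.21. *Ccr4*, *Ccr6* and *Maf* were named after their values were seen. Without any 1 WT library *Icos*, *Batf*, *Lag3*, *S100a6*, *Ccr4*, *Maf* and *Ccr8* missed the threshold, and with robust moderation *Icos*, *Lag3*, *S100a6* and *Maf* did too (adjusted p = 0.0306, 0.127, 0.0658 and 0.078, edgeR). *Itgae* and *Ccr6* passed in all 16 alternative settings. The NK, cytotoxic and gamma-delta markers given above moved with these increases too, and their part was not tested.

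Costimulatory receptors of the TNF receptor family that thymic regulatory T cell precursors carry did not pass the threshold in edgeR's test. *Tnfrsf4*, which encodes OX40, had 472, 403 and 526 CPM in WT and 107 and 305 CPM in *Tet2/3* DKO replicates 1 and 2, without overlap (log2 fold change -1.18, adjusted p = 0.0689, edgeR's quasi-likelihood test), and its log2 fold change was -0.62 without replicate 1 and -2.14 without replicate 2. *Tnfrsf18*, which encodes GITR, had a log2 fold change of -0.49 (adjusted p = 0.0394 with edgeR and 0.00344 with DESeq2, which called it), *Tnfrsf9* of -0.55 (adjusted p = 0.0591, edgeR) and *Tnfrsf1b* of -0.25 (adjusted p = 0.206, edgeR). *Ctla4*, the inhibitory receptor controlled by FOXP3, had 46.9, 46.1 and 52.1 CPM in WT and 30.9 and 72.9 CPM in *Tet2/3* DKO replicates 1 and 2, on either side of WT (log2 fold change 0.09, adjusted p = 0.896). Leaving out replicate 1 gave 0.59, and leaving out replicate 2 gave -0.66. *Tgfb1*, the suppressive cytokine, had a log2 fold change of -0.64 (adjusted p = 0.0117 with edgeR and 5.51e-05 with DESeq2, which called it).

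**Figure D5:**
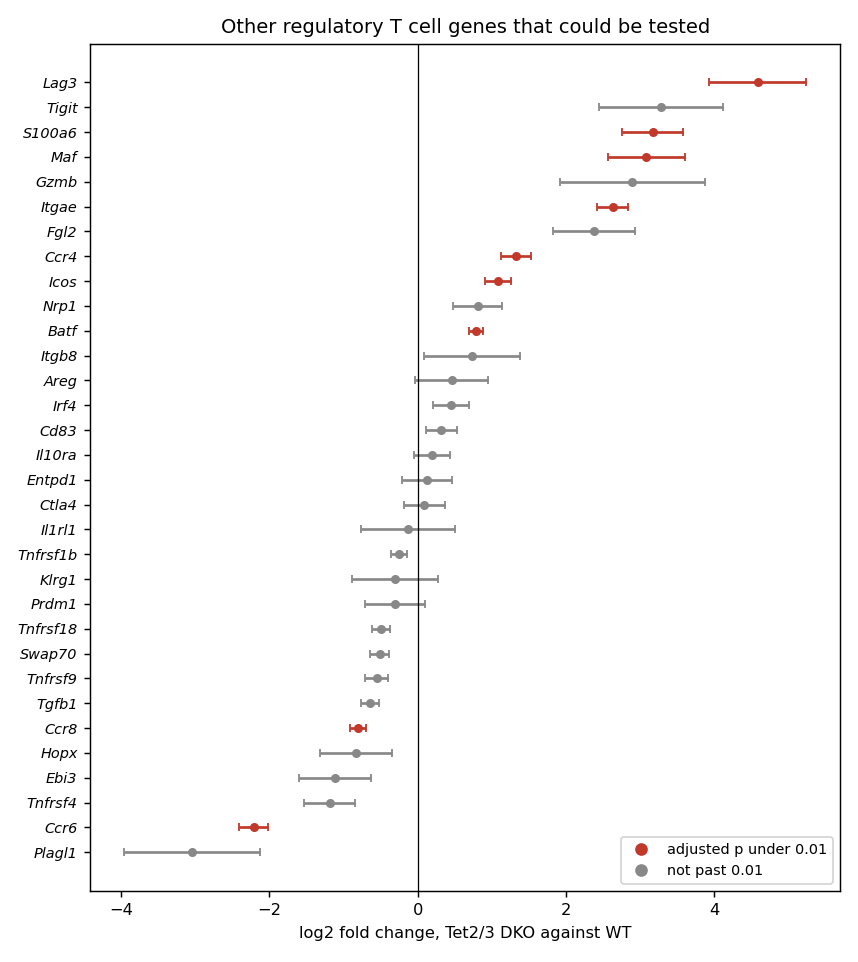
Log2 fold change of Tet2/3 DKO against WT with its standard error (horizontal axis) for the 32 tested genes of the broader regulatory T cell list, with genes past an adjusted p of 0.01 in red. There are 7 red points above 0 and 2 below, Ccr8 at -0.80 and Ccr6 at -2.21.

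Genes known to act on *Foxp3* transcription or on its DNA methylation were 26 in all, and all were tested. With edgeR's quasi-likelihood test 0 of them passed the threshold, where edgeR called 3.92% of all tested genes. DESeq2 called 4, where it called 1027 of 24705 genes. At an unadjusted p under 0.05 in edgeR's test there were 10, and the share of all tested genes at that cut was not computed. Of the 26, 18 had negative log2 fold changes, and the median was -0.25. *Satb1*, a chromatin organizer active before *Foxp3* in regulatory T cell development, had 1326, 1424 and 1381 CPM in WT and 1064 and 825 CPM in *Tet2/3* DKO cells (log2 fold change -0.54, adjusted p = 0.0164 with edgeR and 0.000101 with DESeq2, which called it). *Ets1* had a log2 fold change of -0.26 (adjusted p = 0.0762) and *Smad2* of 0.0032 (adjusted p = 0.989).

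Of 14 tested genes of IL-2 receptor signalling, the pathway of *Il2ra*, 1 was lower and 13 did not pass in edgeR's quasi-likelihood test, with a median log2 fold change of -0.08, where 1.5% of all tested genes were lower. DESeq2 called 5, where it called 1027 of 24705 genes. At an unadjusted p under 0.05 in edgeR's test there were 8, and the share of all tested genes at that cut was not computed. The lower gene was *Cish*, a feedback inhibitor induced by STAT5, with 25.4, 29.4 and 27.4 CPM in WT and 16.1 and 14.0 CPM in *Tet2/3* DKO cells (log2 fold change -0.86, adjusted p = 0.0062, edgeR's quasi-likelihood test). The call was lost with the replicate block (adjusted p = 0.0345) and without any 1 WT library (0.0309 to 0.0417). *Il2rg*, the shared receptor chain, had -0.12 (adjusted p = 0.513) and *Jak1*, its kinase partner, -0.18 (adjusted p = 0.294).

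For TGF-beta handling, to which *Lrrc32* belongs, DESeq2 called 3 of 15 tested genes, beside 1027 of 24705 genes. With edgeR 1 of the 15 was higher, beside 2.42% of all tested genes. This was *Tgfbr1*, the type I receptor, with 8.39, 7.54 and 9.26 CPM in WT and 17.4 and 16.1 CPM in *Tet2/3* DKO cells (log2 fold change 0.99, adjusted p = 0.0061, edgeR's quasi-likelihood test). The call was lost with the replicate block (adjusted p = 0.0255), with first-strand counts (0.0168) and without any 1 WT library (0.0274 to 0.0453). *Nrros*, another anchor of latent TGF-beta, had 0.40 (adjusted p = 0.0676).

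Around *Nt5e*, adenosine handling gave 1 higher and 1 lower of 10 tested genes with edgeR, beside 2.42% and 1.5% of all tested genes. DESeq2 also called 2, beside 1027 of 24705 genes. *Adk*, the kinase that returns adenosine to AMP, had 191, 177 and 188 CPM in WT and 343 and 361 CPM in *Tet2/3* DKO cells (log2 fold change 0.93, adjusted p = 0.0002, edgeR's quasi-likelihood test). *Enpp1*, an ecto-enzyme that releases AMP from ATP, had 16.8, 15.5 and 16.0 CPM in WT and 5.20 and 7.44 CPM in *Tet2/3* DKO cells (log2 fold change -1.36, adjusted p = 0.0029, same test), a call lost with the replicate block (adjusted p = 0.0178) and without any 1 WT library (0.0249 to 0.0258). *Dpp4*, a surface peptidase, had 0.34 (adjusted p = 0.122) and the transporter gene *Slc28a2* -0.27 (adjusted p = 0.252).

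Relatives of the 9 genes gave 0 past the threshold in edgeR's quasi-likelihood test, which called 3.92% of all tested genes. DESeq2 called 1027 of 24705 genes. The share of all tested genes at an unadjusted p under 0.05 was not computed. Among the Ikaros family *Ikzf1*, *Ikzf3* and *Ikzf5* had log2 fold changes of -0.06, 0.46 and 0.58, with 1 at an unadjusted p under 0.05 and 0 with DESeq2. Of the FOXP family *Foxp1* had -0.28 and *Foxp4* -0.41, with 1 at an unadjusted p under 0.05 and 0 with DESeq2. Of 8 tested actin capping and gelsolin genes, the relatives of *Capg*, 1 had an unadjusted p under 0.05 and 1 passed with DESeq2, and *Capzb* and *Capza2* had -0.04 and 0.10. The folate receptor list, relatives of *Izumo1r*, had 1 tested gene, the folate transporter gene *Slc19a1*. It had 0.26, an unadjusted p under 0.05 and no call by DESeq2, and *Folr1* and *Folr2* had 0 counts in every library. Of 12 T cell anergy genes, a list without *Izumo1r*, edgeR called 1, *Lag3*, as higher, beside 2.42% of all tested genes, and DESeq2 called 4. *Rnf128*, the anergy-associated ubiquitin ligase GRAIL, named after its values were seen, had 0.735, 0.379 and 0.547 CPM in WT and 4.53 and 53.3 CPM in *Tet2/3* DKO replicates 1 and 2 (log2 fold change 5.65, adjusted p = 0.0118 with edgeR and 4.49e-05 with DESeq2), which was 6.56 without replicate 1 and 3.00 without replicate 2.

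Defining markers were checked against the sort with the same edgeR test, in which 2.42% of all tested genes were higher and 1.5% lower. DESeq2 called 1027 of 24705 genes. For the counts at an unadjusted p under 0.05 the share of all tested genes was not computed. Of 8 CD4 T cell identity genes *Cd4*, *Cd5* and *Zbtb7b* were lower in *Tet2/3* DKO cells and 5 did not pass, while DESeq2 called *Thy1* as higher, and the summed level of the 8 was 9612 to 10175 CPM in WT and 9428 and 8284 CPM in *Tet2/3* DKO replicates 1 and 2. Of 5 tested immature thymocyte markers 1, *Cd8b1*, was lower and 4 did not pass, among which *Cd8a* and *Ccr9* had positive and *Cd24a* and *Dntt* negative log2 fold changes. *Rag1* had 0 counts in every library. Of 5 markers of mature cells ready to leave the thymus *S1pr1* and *Ccr7* were lower, and DESeq2 called 4. Of 5 iNKT cell markers 2 were higher, where DESeq2 called 3, and of 3 tested B cell markers 1, *Blk*, which the gamma-delta list also holds. In edgeR's quasi-likelihood test 0 of 7 tested myeloid markers passed, with 6 at an unadjusted p under 0.05 and 0 with DESeq2, at 114 to 128 CPM in sum in WT and 156 and 230 CPM in *Tet2/3* DKO cells. Of 3 tested thymic epithelial markers 0 passed, with 3 at an unadjusted p under 0.05 and 0 with DESeq2. Erythroid markers summed to at most 0.336 CPM. The part of these markers in the results above was not tested.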

How the data were processed

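RNA-seq of CD4 SP cells (3 WT and 2 *Tet2/3* DKO libraries, SMART-seq without strand or molecular identifiers) was used. The authors trimmed reads with fastp 0.21.0, mapped them to mm10 using STAR 2.7.5a and the GRCm38.100 gene models, and deposited raw counts of reads per gene, without strand and for each strand, neither normalized nor pooled. Symbols, exons and neighbours came from GENCODE M21, which held 55141 of 55487 identifiers, and upstream sequences from RefSeq.

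Groups came from the sample labels. Counts without strand were tested over 13525 genes with edgeR 4.0.16 in R 4.3.3 (quasi-likelihood test, TMM scaling, filterByExpr with a minimum count of 10, Benjamini-Hochberg adjustment, threshold 0.01), and DESeq2 1.42.0 was an alternative. The script was tested on simulated data. Each library is 1 mouse, and with 3 against 2 libraries p-values rest on few animals. Reads without molecular identifiers are not independent molecules. Row classes of reads on no gene (3.51% to 5.70%) and on several genes (6.47% to 6.73%) entered no library size. Replicate numbers are shared between the genotypes, and same-numbered libraries deviated with correlations of 0.015 and 0.0045 over 2 pairs, so they were not treated as pairs.

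The 9 genes and all lists were chosen with earlier results of these data known. Genes named were the 9, targeted, sex-linked and neighbouring genes, Ikaros and FOXP relatives, and by highest mean CPM up to 6 called and 6 uncalled genes of the broader list (with *Ctla4*, *Tnfrsf18* and *Tnfrsf4*) and up to 3 called and 2 uncalled of each pathway list, and the 3 genes most like *Foxp3*. Marker genes and *Ccr4*, *Ccr6*, *Maf* and *Rnf128* were named after their values were seen. The deposited clonotype tables were not used.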

Additional observations from a re-analysis of the deposited data

How the results depend on the processing

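With 3 of the 9 genes past the threshold, the count without 1 library ran from 0 (without WT replicate 2 or 3) to 7 (without *Tet2/3* DKO replicate 2), and it was 1 without WT replicate 1. For the broader list, with 9 genes, it ran from 2 (each WT library) to 18 (*Tet2/3* DKO replicate 1), and it was 14 at a threshold of 0.05. The number of called genes overall was 110 to 1311 without 1 library and 1027 with DESeq2, against 530, and the cause was not tested. Leaving out 1 *Tet2/3* DKO library leaves 1, which is assumed to vary like the WT libraries.

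With the replicate number as a block, 358 genes were called, and of the 9 genes *Foxp3* (log2 fold change -1.28, adjusted p = 0.00254, edgeR) and *Izumo1r* (0.66, adjusted p = 0.00518) passed and *Nt5e* (1.51, adjusted p = 0.0156) did not. Of the other named genes *Cish*, *Tgfbr1* and *Enpp1* also missed under the block, with adjusted p-values of 0.0345, 0.0255 and 0.0178. The numbers were not taken as pairs.

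With the counts of both strands added, an alternative chosen after seeing the data, the ratio to *Foxp3* in *Tet2/3* DKO over that in WT was 1.08 for *Ikzf4*, 2.17 for *Gpr83*, 1.20 for *Capg*, 2.55 for *Izumo1r*, 2.003 for *Ikzf2* and 1.52 for *Lrrc32*, against 1.77, 3.51, 1.85, 4.09, 3.44 and 2.31 with counts without strand.

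Over 55 named genes and 16 settings, 769 of 880 values kept their direction and their side of the threshold, and 47 genes never changed sign. Without 1 library the log2 fold change ran from -1.63 to 0.12 for *Il2ra* (positive without *Tet2/3* DKO replicate 1), from -0.39 to 0.83 for *Ikzf2* (negative without it) and from -0.86 to 0.48 for *Lrrc32*, which was 0.0087 without WT replicate 3, 0.48 without *Tet2/3* DKO replicate 1 and 0.024 with second-strand counts. Without 1 library *Ctla4* ran from -0.66 (*Tet2/3* DKO replicate 2) to 0.59 and *Ppp1r3f* from -2.06 to 0.54 (*Tet2/3* DKO replicate 2), and *Ppp1r3f* was 0.025 with first-strand counts. *Ikzf1* ran from -0.22 to 0.071, and was 0.065 without WT replicate 2 and 0.071 without *Tet2/3* DKO replicate 2. *Smad2* ran from -0.021 (*Tet2/3* DKO replicate 2) to 0.017, and was -0.016 without WT replicate 2, -0.017 with no filter on low counts and -0.001225 with DESeq2. *Ikzf5* was -0.19 with first-strand counts and -0.026 with the sum of both strands. *Foxp3* had at least 376 counts without strand per library, and the part of sequencing depth in its result was not tested.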
